A study of Mus musculus with 24 samples.

Results

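Scd1, Elovl3, Mc5r, Far2, Awat2 and Fasn, 6 genes known for sebaceous gland lipid, were followed in mouse digits before and after amputation. They were taken as the probe sets that the platform's probe-to-gene table pairs with these symbols, which gave 6 of the 15928 probe sets tested, 1 for each gene. The study set wild-type MRL/MpJ (MRL) mice against wild-type C57BL/6 (B6) mice, all 3 to 4 months old. RNA of hindlimb digits was measured on Affymetrix exon arrays without amputation (day 0) and 3, 7 and 14 days after amputation. The labels describe the piece taken in different ways, as a phalanx or as the anterior part of the middle digit. Which of these holds is not known. The labels give 3 biological replicates for every strain and day, which makes 8 groups and 24 arrays. No label says whether the replicates are separate animals or pooled ones, so the p-values measure the spread between these samples, and the RNA is that of the whole piece of digit with every tissue in it.

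Sebaceous glands sit beside the hair follicle, and their cells fill with lipid and burst to release sebum onto the hair canal. Mouse sebum is rich in wax esters, which are made by building a fatty acid, lengthening and desaturating it, reducing part of the fatty acids to alcohols and joining alcohol and acid. Because the glands come with hair follicles, transcripts of this pathway are often read as a sign of hairy skin in a dissected piece. None of these enzymes is exclusive to the gland, since fat cells and epidermis also make fatty acids.

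Each enzyme has its own step in that pathway, while Mc5r is a receptor. Fasn is fatty acid synthase, which builds palmitate. Scd1 is a stearoyl-CoA desaturase, and mice that lack it have shrunken sebaceous glands and sparse hair. Elovl3 lengthens fatty acyl chains beyond those that Fasn makes, and mice without it have an altered sebum and a poorly water-repellent coat. Far2 reduces fatty acyl-CoA to fatty alcohol, and Awat2 joins the alcohol to an acyl group to give a wax ester. Mc5r is a melanocortin receptor of exocrine glands, and mice without it make less sebum.

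The promoters are shown as sequence only, and a link to the changes of the 6 genes described below was not tested. RefSeq promoter windows on build GRCm38.p6, running from 250 bases before to 50 bases after a transcription start, were at hand for 3 of the 6 genes, Far2, Awat2 and Fasn, with 2 starts for Awat2. Capitals mark CCAAT or its reverse complement ATTGG, the core of the site known for the factor NF-Y. The Far2 window lies at chr6:148047166-148047465 on the plus strand, and the other 3 lie on the minus strand, Awat2 start 1 at chrX:100442668-100442967, Awat2 start 2 at chrX:100412538-100412837 and Fasn at chr11:120824498-120824797.
Far2: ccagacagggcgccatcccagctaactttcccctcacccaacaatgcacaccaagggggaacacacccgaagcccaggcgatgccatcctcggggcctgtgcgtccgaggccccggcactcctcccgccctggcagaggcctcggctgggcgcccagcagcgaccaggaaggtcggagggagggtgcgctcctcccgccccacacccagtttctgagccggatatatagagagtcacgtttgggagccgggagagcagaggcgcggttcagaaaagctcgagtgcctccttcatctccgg
Awat2 start 1: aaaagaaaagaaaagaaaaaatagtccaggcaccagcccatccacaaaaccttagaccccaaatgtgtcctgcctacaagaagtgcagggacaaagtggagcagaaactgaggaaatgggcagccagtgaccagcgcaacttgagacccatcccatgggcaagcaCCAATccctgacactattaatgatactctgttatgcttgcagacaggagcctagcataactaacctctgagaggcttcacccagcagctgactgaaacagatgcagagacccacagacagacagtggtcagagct
Awat2 start 2: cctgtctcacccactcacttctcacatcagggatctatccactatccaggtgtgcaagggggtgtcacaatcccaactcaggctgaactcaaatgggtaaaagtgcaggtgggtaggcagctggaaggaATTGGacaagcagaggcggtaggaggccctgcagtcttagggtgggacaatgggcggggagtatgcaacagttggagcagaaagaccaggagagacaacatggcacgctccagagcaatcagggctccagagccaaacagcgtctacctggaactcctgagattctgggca
Fasn: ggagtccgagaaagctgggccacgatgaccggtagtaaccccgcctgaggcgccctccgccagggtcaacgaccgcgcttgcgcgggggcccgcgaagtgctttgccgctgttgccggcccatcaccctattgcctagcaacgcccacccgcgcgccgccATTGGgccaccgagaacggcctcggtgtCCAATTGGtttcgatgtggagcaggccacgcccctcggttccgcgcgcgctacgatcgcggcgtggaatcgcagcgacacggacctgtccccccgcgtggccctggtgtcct

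CCAAT on either strand was found 3 times in the Fasn window, with the last 2 matches overlapping, and 1 time in each Awat2 window, but in these letters not in the Far2 window. Of all 32851 promoter windows of the same length, 37.4% held it. The E-box CACGTG (7.15% of all windows), the TATA box letters TATAAA (13.6%), the sterol response element of the LDL receptor type (0.234%) and the direct repeat bound by PPAR and RXR (0.0396%), each searched on both strands, matched none of the 4 windows. The windows differed in composition, with 39 CpG and 69.3% GC for Fasn and 21 CpG and 66% GC for Far2, against 1 CpG and 49% GC at Awat2 start 1 and 4 CpG and 55% GC at Awat2 start 2. The median over all windows was 7 CpG and 52.7% GC. These matches describe letters and no binding.

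The arrays labelled MRL day 0 and MRL day 3 went against their labels, which bears on every MRL value of those days. Csf3r, a neutrophil receptor, had a log2 intensity of 8.84 ± 0.37 in MRL day 0 and 5.72 ± 0.43 in MRL day 3, against 9.75 ± 0.16 in B6 day 3 and 5.63 ± 0.13 in B6 day 0 (SD, n = 3 each). S100a8 and S100a9, also of neutrophils, varied in MRL day 3, at 9.24 ± 1.82 and 8.33 ± 1.87. In B6 day 0 they were at 7.44 ± 0.13 and 6.34 ± 0.18, and in MRL day 0 at 11.47 ± 0.28 and 10.46 ± 0.28. The mean of 9 leukocyte genes was 7.10, 7.98 and 8.07 in MRL day 3, against 7.41 to 7.42 in B6 day 0. The hair shaft keratin Krt31 had 7.48 ± 0.40 in the arrays labelled MRL day 0 and 10.13 ± 0.14 in those labelled MRL day 3. The arrays labelled unamputated MRL thus carried the higher neutrophil signal and the lower hair signal of the pair. The groups keep their labels here, and results that use them are given apart from those that do not. Median intensities of the arrays lay between 141 and 181, and differences are in log2 of the deposited intensity unless stated.

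Over all arrays the mean level of the 6 probe sets lay between the 71.1th (Awat2) and the 99.7th (Scd1) percentile of those tested. In B6 on day 3 after amputation, each of the 6 genes was lower in every array than in any unamputated B6 array. The fall was similar in size across the 6 genes. It left 33.7% of the day 0 level for Awat2, 34.3% for Fasn, 37.2% for Mc5r, 41.4% for Far2, 44.7% for Elovl3 and 47.8% for Scd1. By limma's fit over all probe sets 6 of 6 genes fell, beside 28.0% of all probe sets called lower in this comparison, and for 6 of 6 the arrays of the groups did not overlap, beside 30.9% of all. The median of the 6 differences was -1.35, and that of all probe sets -0.08. In such whole-tissue RNA, fewer cells of a type and less RNA per cell cannot be told apart.

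Fasn, at the start of the pathway, had intensities of 1894, 2001 and 1983 on day 0, 815, 681 and 548 on day 3, 843, 590 and 804 on day 7, and 790, 1014 and 982 on day 14 in B6. The day 0 arrays lay far above all 9 later arrays, which overlapped among themselves. Fasn fell by 1.54 ± 0.13 on the log2 scale on day 3 (SE, limma adjusted p = 1.32e-08), by 1.41 ± 0.13 on day 7 (adjusted p = 6.1e-08) and by 1.09 ± 0.13 on day 14 (adjusted p = 3.14e-06), each against B6 day 0. On day 14 Fasn was at 47.1% of its B6 day 0 level, the lowest share of the 6 genes at that time.

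Scd1, the brightest of the 6 probe sets, had intensities of 7801, 7861 and 7682 on day 0, 3855, 3718 and 3586 on day 3, 4972, 4055 and 4901 on day 7, and 5582, 5720 and 5314 on day 14 in B6. No 2 of these groups overlapped, and day 3 was the lowest. Scd1 fell by 1.07 ± 0.09 on day 3 (limma adjusted p = 3.98e-09), by 0.75 ± 0.09 on day 7 (adjusted p = 6.6e-07) and by 0.49 ± 0.09 on day 14 (adjusted p = 0.000138), against B6 day 0. At 71.1% of B6 day 0 on day 14, its share was the highest of the 6.

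Elovl3 had intensities of 2730, 2831 and 2992 on day 0, 1523, 1445 and 940 on day 3, 1524, 1040 and 1659 on day 7, and 1712, 1524 and 1495 on day 14 in B6. The 3 later days overlapped one another and stayed below day 0 in every array. 1 array on day 3 and another on day 7 were well below their groups, and the SD there was 0.38 and 0.36 in log2. Elovl3 fell by 1.16 ± 0.16 on day 3 (limma adjusted p = 7.19e-06), by 1.05 ± 0.16 on day 7 (adjusted p = 2.58e-05) and by 0.86 ± 0.16 on day 14 (adjusted p = 0.000298).

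For the wax ester steps, Far2 had intensities of 6405, 6438 and 6470 on day 0, 2842, 2722 and 2443 on day 3, 3881, 3459 and 3794 on day 7, and 4457, 4191 and 3599 on day 14 in B6. The day 0 arrays were close together and the highest, day 3 was the lowest, and days 7 and 14 overlapped. Far2 fell by 1.27 ± 0.10 on day 3 (limma adjusted p = 1.77e-09), by 0.80 ± 0.10 on day 7 (adjusted p = 1.48e-06) and by 0.66 ± 0.10 on day 14 (adjusted p = 2.04e-05).

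Awat2, the dimmest of the 6, had intensities of 443, 588 and 728 on day 0, 215, 218 and 155 on day 3, 341, 386 and 334 on day 7, and 351, 452 and 339 on day 14 in B6. Its arrays spread most, with a pooled SD of 0.37 in log2 against 0.09 for Scd1, and day 14 overlapped day 0. Awat2 fell by 1.57 ± 0.28 on day 3 (limma adjusted p = 0.000106) and by 0.70 ± 0.28 on day 7 (adjusted p = 0.045). The day 7 call was lost without B6 day 0 replicate 2 (adjusted p = 0.0960) or replicate 3 (0.186), and without B6 day 7 replicate 1 (0.0976), replicate 2 (0.0665) or replicate 3 (0.1003). With the replicate number as a block its adjusted p was 0.058. On day 14 Awat2 did not pass, with a difference of -0.61 ± 0.28 (adjusted p = 0.0907), but it passed at 0.0490 without B6 day 0 replicate 1. It also passed under cyclic loess scaling (0.0262), with the arrays shifted to 1 median (0.0313), with array weights (0.0466) and with only the groups compared (0.0388).

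Mc5r, the receptor, had intensities of 812, 982 and 762 on day 0, 338, 291 and 317 on day 3, 433, 413 and 439 on day 7, and 492, 577 and 499 on day 14 in B6. Here too no 2 groups overlapped, with the order of days 0, 14, 7 and 3 from high to low. Mc5r fell by 1.43 ± 0.13 on day 3 (limma adjusted p = 3.15e-08), by 0.98 ± 0.13 on day 7 (adjusted p = 5.48e-06) and by 0.70 ± 0.13 on day 14 (adjusted p = 0.000317).

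**Figure D1:**
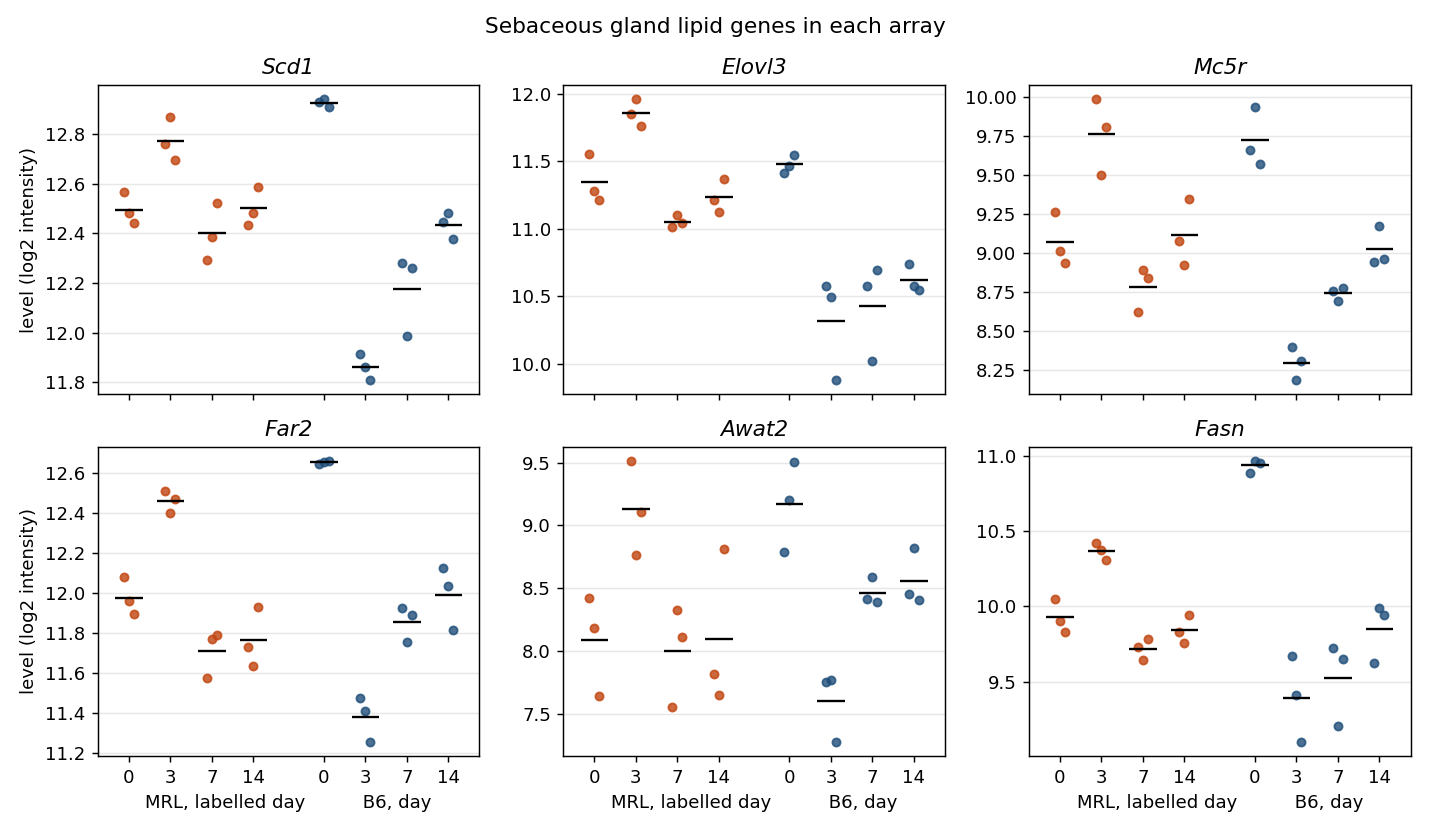
Log2 intensity of the 6 genes in each array, with MRL groups left and B6 groups right in each panel and days 0, 3, 7 and 14 in order. Dots are single arrays and bars are group means, and B6 day 3 is the lowest of the 8 groups for each gene.

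Across the 3 later days in B6, 6 of 6 genes were lower on day 7 than on day 0, beside 19.4% of all probe sets called lower, with a median of -0.89 against -0.01 over all. On day 14, 5 of 6 were lower than on day 0, beside 14.2% of all, with a median of -0.68 against -0.01. These comparisons share the B6 day 0 arrays. Under cyclic loess scaling the calls over all probe sets split into 3597 higher and 3466 lower on day 3, where the deposited scale gave 2776 and 4458, and into 3421 and 3234 on day 14, where the deposited scale gave 3624 and 2266. The counts of the 6 genes did not leave the range of 5 to 6 in any of these 3 comparisons under the alternatives tried, with the lowest counts on days 7 and 14.

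Between day 7 and day 3 in B6, 4 of 6 genes were higher on day 7, beside 17.0% of all probe sets called higher. Awat2 rose by 0.87 ± 0.28 (limma adjusted p = 0.0281), Far2 by 0.48 ± 0.10 (0.00117), Mc5r by 0.45 ± 0.13 (0.0197) and Scd1 by 0.31 ± 0.09 (0.0113), while Fasn differed by 0.13 ± 0.13 (0.555) and Elovl3 by 0.12 ± 0.16 (0.681). Far2 passed in every alternative, at 0.31 with the arrays shifted to 1 median. The other 3 calls were lost under cyclic loess scaling, which called 1 gene and turned the split over all probe sets to 1523 higher and 1517 lower, where the deposited scale gave 2708 and 664. Scd1 also lost its call with the arrays shifted to 1 median, at 0.14 (0.130), and with only the groups compared (0.133). Leaving out B6 day 7 replicate 1 (0.0715) or replicate 3 (0.0625) did the same. Mc5r lost its call with the arrays shifted to 1 median (0.0767). The same held without B6 day 3 replicate 2 (0.0921) or B6 day 7 replicate 1 (0.0601) or 3 (0.0637). Awat2 lost its call without B6 day 3 replicate 3 (0.122) or B6 day 7 replicate 1 (0.0636), 2 (0.0755) or 3 (0.0575).

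Between day 14 and day 7 in B6, 0 of 6 genes passed limma's test, beside 1.86% of all probe sets, and 3 of 6 had an unadjusted p under 0.05. The differences ran from 0.10 for Awat2 to 0.33 for Fasn, with a median of 0.23. Cyclic loess scaling called 1 gene, Scd1, at 0.30 (adjusted p = 0.0387). The hair genes differed more between these days. Of 6 hair shaft keratins measured, 5 were higher on day 14 than on day 7, with a median of 3.38, and of 7 inner root sheath genes 7 were, with a median of 3.19.

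The share of the day 3 fall regained was taken on the log2 scale of the deposited values. The 6 genes stood at 8.55% to 55.3% by day 7 and 26.3% to 61.4% by day 14. The lowest day 7 shares, of Fasn and Elovl3 (9.94%), rest on differences from day 3 that did not pass. Under the alternatives these differences went down to -0.04 and -0.10. Over all probe sets the median of day 7 minus day 3 was 0.08, and -0.02 under cyclic loess scaling. Shares under other scalings were not computed. The shares on day 14 were 26.3% for Elovl3, 29.6% for Fasn, 47.9% for Far2, 51.0% for Mc5r, 53.9% for Scd1 and 61.4% for Awat2. The hair shaft keratins had regained a median of 2.84% by day 7 and 86.8% by day 14, with 75.9% as the lowest gene on day 14, above the highest of the 6 lipid genes. The inner root sheath genes had a median of -1.83% by day 7 and 87.5% by day 14. The difference between these lists was not tested, and all shares rest on the same B6 day 0 and day 3 arrays.

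**Figure D2:**
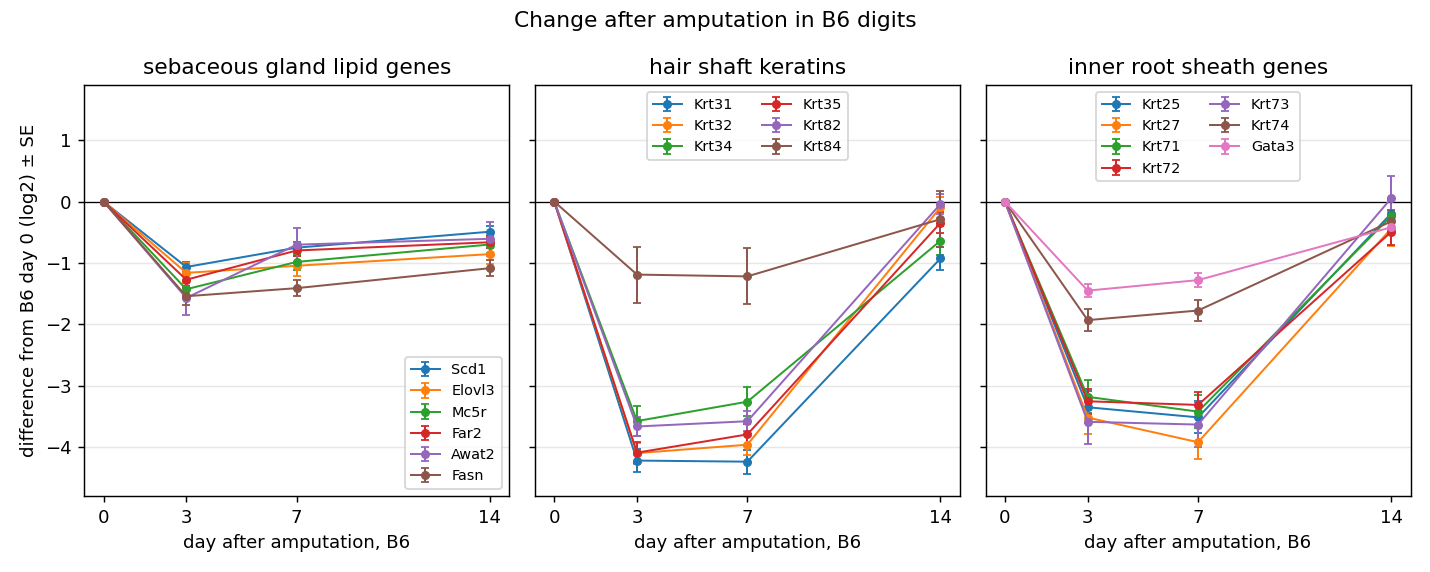
Difference from B6 day 0 in log2 (mean and SE) on days 0, 3, 7 and 14 in B6, for the 6 lipid genes, the hair shaft keratins and the inner root sheath genes. On day 7 the hair genes have regained little of their fall (medians of 2.84% and -1.83%). On day 14 they lie between -0.93 (Krt31) and 0.05 (Krt73), a range that overlaps that of the 6 lipid genes, -1.09 to -0.49.

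The 6 genes were set beside 11 other lists, chosen with earlier results of these data known. In B6 on day 3 against day 0, 28.0% of all probe sets were called lower and 17.4% higher. Beside this, 9 of 9 measured genes of the sebaceous lineage were lower, with a median of -0.57. Among them were Cidea, a lipid droplet protein, at -1.48 ± 0.17, Lrig1, a marker of stem cells at the base of the gland, at -0.96 ± 0.11, Krt79, a keratin of the gland duct, at -0.95 ± 0.11, and Acsbg1, an acyl-CoA synthetase, at -0.89 ± 0.11. Of 10 further genes of wax ester and neutral lipid synthesis, 5 were lower and 1, Mogat1, was higher, with a median of -0.47. Fa2h, which adds a hydroxyl group to fatty acids, fell by 1.89 ± 0.13, and Gpam, which starts glycerolipid synthesis, fell by 1.08 ± 0.10.

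Of 18 measured genes of fatty acid synthesis, elongation and desaturation, 14 were lower and 0 higher in B6 on day 3, with a median of -0.52. The day 3 counts here again stand beside 28.0% of all probe sets called lower and 17.4% called higher. Scd3, a desaturase of mouse sebaceous glands, fell by 2.86 ± 0.20, Acacb, an acetyl-CoA carboxylase, by 1.77 ± 0.13, and the elongase Elovl6 by 1.15 ± 0.15. Of 14 genes of cholesterol synthesis, 12 were lower and 0 higher, with a median of -0.67. Of 7 other melanocortin genes measured, 0 were lower and 1 was higher, Mc1r, the receptor of pigment cells, at 0.44 ± 0.16. That share of higher genes is close to that of all probe sets. These 7 were dim in B6 day 0, with mean log2 intensities from 4.53 to 6.60 against 9.73 for Mc5r. Mrap, 1 of them, was called lower on day 7 against day 0, at -0.34 ± 0.12 (limma adjusted p = 0.0279), beside 19.4% of all probe sets. Whether their low level hides a fall on day 3 was not tested. The sizes of lists differ, and no list was tested against another.

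Most markers of fat, hair follicle and sweat gland fell with the 6 genes in B6 on day 3, while most leukocyte genes rose. The counts stand beside 28.0% of all probe sets called lower and 17.4% called higher on day 3. Of 10 adipocyte genes 9 were lower on day 3 than on day 0, with a median of -0.93, and their mean log2 intensity ran from 6.61 to 7.00 on day 3 against 7.65 to 7.75 on day 0. Adipoq, the adipocyte hormone adiponectin, fell by 1.46 ± 0.30. Of 9 leukocyte genes 7 were higher and 0 lower on day 3, and their mean ran from 9.67 to 9.76 against 7.41 to 7.42 on day 0. Hair shaft keratins were lower for 6 of 6, with a median of -3.88 and a mean of 6.31 to 6.53 against 9.72 to 10.07, and inner root sheath genes for 7 of 7, with a median of -3.25. Of 8 interfollicular epidermis genes 2 were lower, Krt2 at -0.84 and Lor at -0.60, a share close to that of all probe sets, and their mean ran from 12.22 to 12.39 against 12.37 to 12.47. Of 7 genes of the eccrine sweat gland, the other gland of the digit's skin, 5 were lower, with a median of -0.55 and a mean of 6.27 to 6.36 against 6.76 to 6.81. They included the water channel Aqp5 at -0.88 ± 0.16 and the chloride cotransporter Slc12a2 at -0.59 ± 0.11. On day 14, 4 of the 7 eccrine genes were lower than on day 0, beside 14.2% of all probe sets called lower in that comparison. The part of fat, leukocytes, hair follicles, sweat glands or epidermis in the fall of the 6 genes was not tested.

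**Figure D3:**
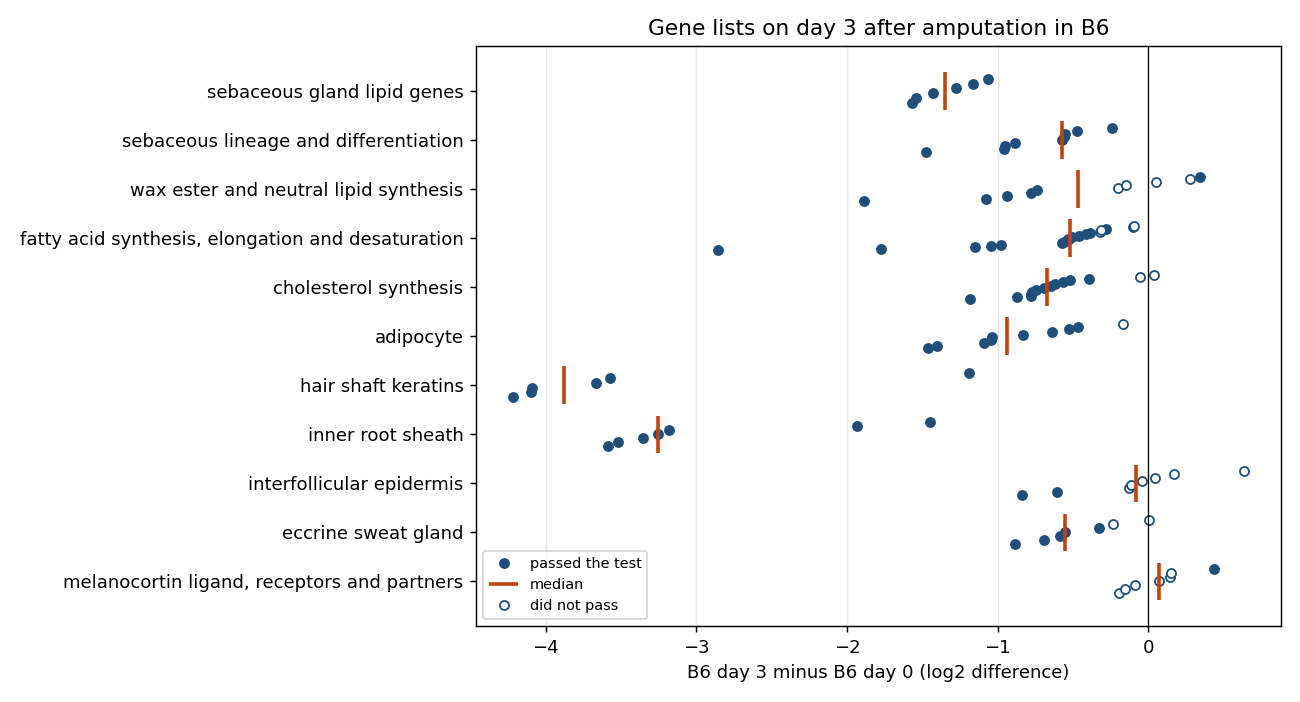
B6 day 3 minus B6 day 0 in log2 for every measured gene of the lists other than the leukocyte list, which is not drawn. Filled points are genes that passed limma's test, open points are the others, and a line marks each median. The 6 lipid genes lie between -1.57 and -1.07, below most genes of the wider lipid lists and above most hair shaft keratins, whose median is -3.88.

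On day 14 against day 0 in B6, where 14.2% of all probe sets were called lower, the counts of lower genes in the wider lipid lists were 8 of 9 in the sebaceous lineage (median -0.52), 5 of 10 in wax ester and neutral lipid synthesis (-0.36), 8 of 18 in fatty acid synthesis (-0.22), 7 of 14 in cholesterol synthesis (-0.37) and 8 of 10 among adipocyte genes (-0.77). Of the hair shaft keratins 2 of 6 were lower on day 14 (median -0.32), and of the inner root sheath genes 1 of 7 (-0.32), a share close to that of all probe sets. The same comparison gave 5 of 6 lower and a median of -0.68 for the 6 lipid genes.

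The strains were compared first on days 7 and 14, where neither doubted group enters. Elovl3 was the member that passed limma's test on both days, and it was higher in MRL. On day 7 it had intensities of 2061, 2203 and 2113 in MRL, against 1524, 1040 and 1659 in B6. The arrays did not overlap, and the difference was 0.62 ± 0.16 (adjusted p = 0.0167), a 1.54-fold higher level in MRL. On day 14 it had 2371, 2235 and 2649 in MRL, against 1712, 1524 and 1495 in B6. Again the arrays did not overlap, and the difference was 0.62 ± 0.16 (adjusted p = 0.0251), a 1.53-fold higher level in MRL.

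These calls of Elovl3 rested on few arrays. The day 7 difference was 0.42 (limma adjusted p = 0.123) without B6 day 7 replicate 2, the lowest array of its group, and 0.60 (0.0578) without MRL day 7 replicate 2, and with only the groups compared in the fit the adjusted p was 0.0640. The day 14 difference was 0.59 (0.0958) without B6 day 14 replicate 2, 0.58 (0.0841) without B6 day 14 replicate 3, 0.63 (0.0652) without MRL day 14 replicate 1 and 0.55 (0.0707) without MRL day 14 replicate 3. The direction was the same in all of them.

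The other members gave no strain difference that passed on the deposited scale. The 1 of 6 called on day 7 stands beside 3.18% of all probe sets called higher in MRL, and the 1 of 6 on day 14 beside 0.866%. On day 7 Scd1 had intensities of 5020, 5349 and 5877 in MRL against 4972, 4055 and 4901 in B6, which did not overlap, with a difference of 0.23 ± 0.09 (limma adjusted p = 0.109). It passed under cyclic loess scaling, at 0.36 (0.00363), and with the arrays shifted to 1 median, at 0.26 (0.0151). Awat2 differed by -0.47 ± 0.28 (0.322) on day 7, with 188, 320 and 276 in MRL against 341, 386 and 334 in B6, which did not overlap. Its arrays overlapped on day 14, with 226, 200 and 448 in MRL against 351, 452 and 339 in B6. Far2 (-0.14), Mc5r (0.04) and Fasn (0.19) were closer to 0 on day 7, as were Far2 (-0.22), Mc5r (0.09), Scd1 (0.07) and Fasn (-0.01) on day 14. With array weights Far2 and Awat2 also passed on day 14, as lower in MRL, at -0.25 and -0.69.

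The arrays behind the smaller differences overlapped between the strains on both days. Fasn had intensities of 850, 799 and 880 in MRL against 843, 590 and 804 in B6 on day 7, and 909, 864 and 986 in MRL against 790, 1014 and 982 in B6 on day 14. Mc5r had 394, 475 and 458 in MRL against 433, 413 and 439 in B6 on day 7, and 540, 486 and 651 in MRL against 492, 577 and 499 in B6 on day 14. Far2 had 3052, 3486 and 3541 in MRL against 3881, 3459 and 3794 in B6 on day 7, and 3396, 3183 and 3906 in MRL against 4457, 4191 and 3599 in B6 on day 14. Scd1, apart on day 7, overlapped on day 14, with 5533, 5719 and 6143 in MRL against 5582, 5720 and 5314 in B6. On day 14, Fasn, Mc5r, Far2, Scd1 and Awat2 thus all overlapped between the strains, and Elovl3 did not.

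Hair genes differed between the strains on day 7 where most lipid genes did not pass. Hair shaft keratins were higher in MRL for 6 of 6, with a median of 1.46 against 0.12 for the lipid genes and -0.07 over all probe sets, and inner root sheath genes for 6 of 7, with a median of 1.53. These counts stand beside 3.18% of all probe sets called higher in MRL. Of the sebaceous lineage, 0 of 9 passed in limma, as did 0 of 14 cholesterol genes and 0 of 10 adipocyte genes. Over all 15928 probe sets, 507 were called higher and 999 lower, so counts of 0 in lists this small are near that share. In the fatty acid list, Elovl6, which lengthens palmitate, went the other way from Elovl3, at -0.94 ± 0.15 (limma adjusted p = 0.000297) on day 7 and -1.09 ± 0.15 (7.42e-05) on day 14, lower in MRL. Fa2h was higher in MRL on day 7 by 0.72 ± 0.13. Acacb, of the same list as Elovl6, had a mean log2 intensity of 8.11 ± 0.04 in MRL against 7.66 ± 0.32 in B6 on day 7 (SD). Slc12a2 of the eccrine list had 9.95 ± 0.14 in MRL against 8.95 ± 0.08 in B6. The day 7 counts of the fatty acid, wax ester and eccrine lists are not given here. Whether the strain difference of the lipid genes differs from that of the hair genes was not tested.

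**Figure D4:**
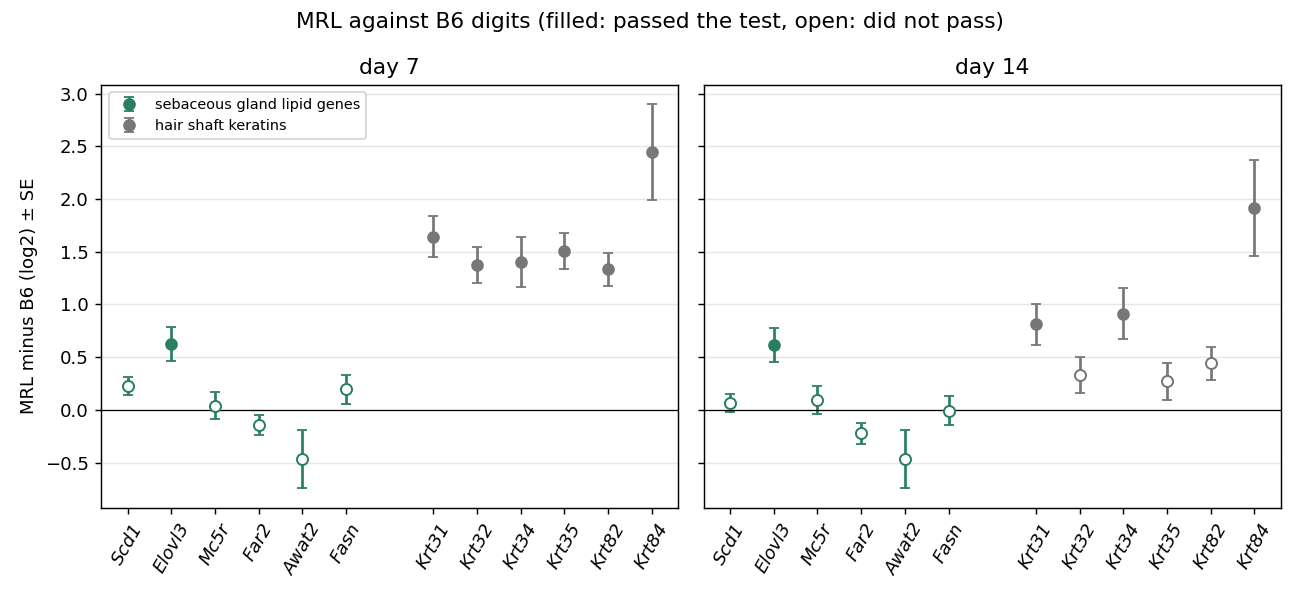
MRL minus B6 in log2 (mean and SE) on days 7 and 14 for the 6 lipid genes and the hair shaft keratins, with filled points for genes that passed limma's test. Elovl3 lies at 0.62 on both days, and the hair shaft keratins lie between 1.33 and 2.44 on day 7.

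Within MRL, day 14 against day 7 gave 0 of 6 lipid genes past limma's test, beside 3.54% of all probe sets, and 1 of 6 had an unadjusted p under 0.05. The differences ran from 0.05 to 0.33, with a median of 0.11, and no alternative called any of the 6. In the same comparison 5 of 6 hair shaft keratins were higher on day 14, with a median of 2.34, and 7 of 7 inner root sheath genes, with a median of 1.88. The strain difference in day 14 minus day 7 passed for 0 of 6 lipid genes in limma, with 0 of 6 at an unadjusted p under 0.05, beside 0.264% of all probe sets.

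The comparisons that follow use the groups labelled MRL day 0 or MRL day 3. All 6 genes were higher in the arrays labelled MRL day 3 than in those labelled MRL day 0, beside 13.4% of all probe sets called higher, by 0.28 for Scd1, 0.44 for Fasn, 0.48 for Far2, 0.51 for Elovl3, 0.70 for Mc5r and 1.05 for Awat2. Far2 showed it plainly, with intensities of 5836, 5395 and 5663 in MRL day 3 against 4324, 3976 and 3803 in MRL day 0. Mc5r had 1016, 724 and 898 against 614, 517 and 490. For MRL day 3 minus MRL day 0, the number of genes called was 3 without MRL day 0 replicate 2 or MRL day 3 replicate 2, and 2 without MRL day 0 replicate 3 or MRL day 3 replicate 1. Mc5r and Far2 passed in each of these 4 fits, while Scd1 (limma adjusted p up to 0.108), Elovl3 (0.122), Awat2 (0.0714) and Fasn (0.1001) missed the threshold in at least 1.

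In B6 the same labels gave the opposite direction for all 6 genes. The test of the strain difference in day 3 minus day 0 was passed by 6 of 6 genes, beside 28.8% of all probe sets called higher. For day 7 minus day 0 it was passed by 5 of 6, beside 13.9%, and for day 14 minus day 0 by 5 of 6, beside 11.1%, with Awat2 as the exception on both days. Under cyclic loess scaling the day 7 differences were 1.03 for Scd1 and 0.89 for Far2, against 0.66 and 0.53 on the deposited scale, and the day 14 differences 0.83 and 0.77, against 0.50 and 0.45. Without B6 day 7 replicate 2 the day 7 difference of Elovl3 was 0.54 (limma adjusted p = 0.0576), and the day 14 difference of Far2 was 0.36 (0.0577) without B6 day 14 replicate 3 and 0.37 (0.0506) without MRL day 14 replicate 3.

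Against the arrays labelled MRL day 3, 6 of 6 genes were lower on MRL day 7, beside 13.4% of all probe sets called lower, and 6 of 6 on MRL day 14, beside 7.55%. Under cyclic loess scaling 5 of 6 passed in each, since Scd1 was at -0.20 (limma adjusted p = 0.0632) on day 7 and at -0.11 (0.416) on day 14. The differences ran from -1.13 for Awat2 to -0.37 for Scd1 on day 7, with a median of -0.78, and from -1.04 for Awat2 to -0.27 for Scd1 on day 14, with a median of -0.64. Both comparisons share the MRL day 3 arrays. For day 14 the number of genes called was 3 without MRL day 3 replicate 1 or MRL day 14 replicate 2, 4 without MRL day 14 replicate 1 and 5 without MRL day 3 replicate 2. Mc5r and Far2 passed in each of these, and Scd1, at an adjusted p of 0.0378 on all arrays, in none of them. Against the arrays labelled MRL day 0, 0 of 6 passed limma's test on MRL day 7, beside 17.3% of all probe sets, with 2 of 6 at an unadjusted p under 0.05, and 0 of 6 on MRL day 14, beside 17.7%, with 1 of 6. With the arrays shifted to 1 median, 4 of 6 passed on day 7. Far2 passed on day 14 at -0.29 (limma adjusted p = 0.0494) without MRL day 14 replicate 3.

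Between strains under equal labels, 5 of 6 genes were lower in MRL day 0 than in B6 day 0, beside 22.1% of all probe sets called lower, with Elovl3 at -0.13 as the exception. On day 3, 6 of 6 were higher in MRL, beside 27.1% called higher, by 0.91 for Scd1 to 1.54 for Elovl3. Set crosswise, the arrays labelled MRL day 3 differed from B6 day 0 in 1 of 6 genes, Fasn, beside 30.3% of all probe sets. Under cyclic loess scaling 3 of 6 differed, with Scd1 at -0.44 (limma adjusted p = 0.000291) and Far2 at -0.48 (7.6e-05) also lower in the MRL day 3 arrays, and array weights likewise called 3, with Elovl3 higher and Far2 lower. Fasn had 1371, 1326 and 1269 in MRL day 3 against 1894, 2001 and 1983 in B6 day 0, a difference of -0.57 ± 0.13 (limma adjusted p = 0.003). The arrays labelled MRL day 0 were higher than B6 day 3 in 5 of 6 genes, beside 6.87% called higher, by 0.54 for Fasn to 1.03 for Elovl3, and Awat2 differed by 0.49. The Fasn call was lost without MRL day 0 replicate 1 (limma adjusted p = 0.0692) or B6 day 3 replicate 3 (0.0676).

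The order of the 8 groups shows what the genes share and where they part. B6 day 3 was the lowest group for all 6, and B6 day 0 the highest for Scd1, Far2, Awat2 and Fasn, with the arrays labelled MRL day 3 the highest for Elovl3 and Mc5r. For Awat2 every pair of neighbours in the order overlapped, so no step between neighbours exceeded the spread. For Fasn the arrays from the third group of the order downward overlapped with their neighbours, and B6 day 0 and the MRL day 3 arrays stood above. For Scd1, B6 day 0, the MRL day 3 arrays, B6 day 7 and B6 day 3 were each apart from their neighbours, while MRL day 14, MRL day 0, B6 day 14 and MRL day 7 overlapped in turn. For Elovl3 the 4 MRL groups and B6 day 0 stood above the other 3 B6 groups.

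Over the 8 group means, Pearson's r between members ran from 0.589 for Elovl3 with Awat2 to 0.965 for Scd1 with Mc5r in 15 pairs. Within groups, over the deviations of the 24 arrays, it ran from 0.188 for Elovl3 with Mc5r to 0.747 for Elovl3 with Fasn. The points share arrays and scaling, so these values describe the arrays only. The genes whose 8 group means followed a member most closely were Krba1 for Scd1 (r = 0.995), Fxyd3 for Elovl3 (0.990), Adck5 for Mc5r (0.992), Drg2 for Far2 (0.990), Gstt3 for Awat2 (0.987) and Plekhg6 for Fasn (0.992). Gpam and the lipid receptor Ppara were also among the 3 closest to Far2, both at 0.989. Of the genes ranked 2 or 3 for any member, only these are named here. All were picked for the highest r out of 14807 genes, members and predicted genes left out, over 8 points. A high r thus follows from the choice.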

How the data were processed

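Per the submitters' processing notes, the arrays were summarised with RMA (background correction, quantile normalization, median-polish summary) in Affymetrix Expression Console on the mm8 build. The deposited table gives 1 linear intensity for each probe set and array, between 3.99 and 12789. No source used here says how it was put on that scale. As deposited, the array medians ran from 141 to 181, so the arrays did not share 1 median despite the quantile normalization named. The table held 16661 probe sets. Those with at least 1 symbol, 15928, were tested. Lists used genes with 1 symbol and the probe set with the highest mean (14807 genes).

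The intensities were turned to log2. The functions lmFit and eBayes of limma 3.58.1 (R 4.3.3) fitted a mean per group, with 16 residual and 4.62 prior degrees of freedom. From it 21 comparisons were taken, 126 for the 6 genes, with 2-sided p-values adjusted by the Benjamini-Hochberg method over all probe sets tested and a threshold of 0.05. Errors of differences are limma's SE, and errors of levels the SD. An exact permutation test of 3 arrays against 3 cannot go below 0.1, so the number of arrays limits precision. The fit was tested on simulated data, drawn independently for each probe set and with no difference in scale between arrays. That test therefore cannot speak to the scaling of the deposited arrays.

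The 6 genes are named in full. Of each list up to 4 genes with the largest difference among those that passed in B6 day 3, 7 or 14 against day 0, or MRL against B6 on day 7, could be named, and up to 3 closest genes for each member. Mogat1 and the day 14 strain values of Elovl6 are given outside this rule, after values were seen. The members and lists were chosen with earlier results of these data known. Replicate numbers gave same-number residual correlations above 0.1 in 10 of 84 cases, so the arrays were treated as unpaired. Alternatives were cyclic loess, a shift to 1 median, an offset of 16, a filter on dim probe sets, array weights, only the groups compared, a replicate block and leaving out each array. A fit without the arrays labelled MRL day 0 and MRL day 3 was added after values were seen. Promoters are from RefSeq (GRCm38.p6).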

Additional observations from a re-analysis of the deposited data

Results flagged for a closer look

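The change after amputation differed between MRL and B6 for several of the 6 genes by limma's test of the difference itself (MRL change minus B6 change, log2, Benjamini-Hochberg over all probe sets). All of these use the arrays labelled MRL day 0, and those of day 3 also the arrays labelled MRL day 3, which went against their labels. For day 3 minus day 0, 6 of 6 genes passed, beside 28.8% of all probe sets called higher. The differences were 1.34 ± 0.12 for Scd1, 1.67 ± 0.23 for Elovl3, 2.12 ± 0.19 for Mc5r, 1.76 ± 0.14 for Far2, 2.62 ± 0.39 for Awat2 and 1.98 ± 0.19 for Fasn. Under cyclic loess scaling the median of all probe sets in this comparison shifted by -0.12.

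For day 7 minus day 0, 5 of 6 passed, beside 13.9% of all probe sets called higher. They were Scd1 at 0.66 ± 0.12, Elovl3 at 0.75 ± 0.23, Mc5r at 0.70 ± 0.19, Far2 at 0.53 ± 0.14 and Fasn at 1.20 ± 0.19. For day 14 minus day 0, 5 of 6 passed, beside 11.1%. They were Scd1 at 0.50 ± 0.12, Elovl3 at 0.74 ± 0.23, Mc5r at 0.75 ± 0.19, Far2 at 0.45 ± 0.14 and Fasn at 1.00 ± 0.19. Under cyclic loess scaling the day 7 values of Scd1 and Far2 were 1.03 and 0.89, and the day 14 values 0.83 and 0.77. No gap test for a far array was run in these groups of 3.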

How the results depend on the processing

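The count of genes called was within 1.5 times of the first value under every alternative in 12 of 21 comparisons, B6 day 3, 7 and 14 against day 0 among them, and no called gene changed sign under any of them. Under cyclic loess, 1 gene was called for B6 day 7 minus day 3 (4 otherwise), 1 for B6 day 14 minus day 7 (0 otherwise), 1 for MRL day 7 minus day 0 (0), 2 for MRL minus B6 on day 7 (1) and 3 for MRL day 3 minus B6 day 0 (1). With arrays shifted to 1 median these counts were 2 for B6 day 7 minus day 3, 4 for MRL day 7 minus day 0, 1 for MRL day 14 minus day 0, 2 for MRL minus B6 on day 7 and 2 for MRL day 3 minus B6 day 0. The offset gave 1 for MRL day 7 minus day 0. Array weights gave 1 there, 1 for MRL day 14 minus day 0, 3 for MRL minus B6 on day 14 and 3 for MRL day 3 minus B6 day 0. With only the groups compared, MRL minus B6 on day 7 gave 0 and MRL day 3 minus B6 day 0 gave 2. Leaving out 1 array gave 2 to 6 for MRL day 3 minus day 0, 0 to 1 for MRL day 14 minus day 0, 1 to 4 for B6 day 7 minus day 3, 3 to 6 for MRL day 14 minus day 3, and 0 to 1 for MRL minus B6 on day 7 and on day 14. The replicate block left the Awat2 call on B6 day 7 minus day 0 (adjusted p = 0.058) and the Scd1 call on MRL day 14 minus day 3 (adjusted p = 0.0531) short of the threshold. The cause of these shifts was not tested. Splits of all calls under cyclic loess were 2339 higher and 1924 lower for MRL day 7 minus day 3 (1542 and 2139 on the deposited scale) and 1606 and 1163 for MRL day 14 minus day 3 (890 and 1202). The 3 arrays in each group, and for Awat2 their spread (pooled SD 0.37), limit what can be told apart.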
